A study of Homo sapiens with 2 samples.

Results

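Mast cells are activated when antigen cross-links IgE bound to its high-affinity receptor, and 9 genes around the first intracellular steps of that pathway are described here in the RNA of mast cell vesicles. They are the kinase genes LYN, SYK and BTK, the adaptor genes LCP2 and LAT2, the phospholipase gene PLCG1, the phosphatase genes PTPN6 and INPP5D, and C5orf58, an uncharacterised gene annotated on the strand opposite LCP2. The genes were chosen by symbol, with earlier results of these data known, and all 9 had a value among the 14467 genes measured. Total RNA came from extracellular vesicles, the membrane particles that cells shed, gathered after 4 days from LAD2, an established line of human mast cells kept in SP34 medium with stem cell factor. The study has 1 group of 2 libraries, replicates 1 and 2, with no untreated or parental-cell samples among those used here, so genes were compared within the libraries and the libraries with each other. Whether each replicate had its own culture is not stated, so their spread may be technical.

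In resting cells LYN is associated with the receptor, and on cross-linking it phosphorylates the receptor's beta and gamma chains. SYK then docks on the gamma chain and phosphorylates the adaptors LAT, LAT2 and LCP2, which assemble BTK and the phospholipases C gamma at the membrane, and the resulting calcium signal releases granules. PTPN6 and INPP5D oppose these steps by removing phosphate from proteins and from a membrane lipid. Other blood cells use these signalling proteins too, so their RNA does not by itself mark a mast cell. In vesicle RNA, fewer vesicles carrying a transcript and fewer copies in each vesicle cannot be told apart.

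Values were deposited as log2, and the linear value below is 2 to that power. A gene was called detected at a linear value of at least 10 in both libraries. The authors' values are shrunken: the values of a weakly read gene are drawn together between the libraries, so the SD of low genes understates their error. Low values fall on evenly spaced steps, from which the number of counted reads behind a gene in each library was estimated, with the spacing taken as 1 read. The 188 lowest genes, all at a linear value of 0.479 in replicate 1, lie off these steps and were given no estimate. From a linear value of 0.5 to 10 the estimates came out whole, within 0.25 of a read, for all 1129 genes that lay off the steps of a single library, and from 10 to 15 for 91.7% of 888 such genes. From 15 to 25 they did so for 27.9%, so estimates there are rough. By these estimates the libraries hold about 2100000 and 1600000 counted reads, and a linear value of 10 stands for about 11.8 reads in replicate 1 and 8.50 in replicate 2. Estimated reads lay in 1 library alone for 7132 genes (49.3%), of which 2667 had at least 10 reads in replicate 1 with 0 in replicate 2, and 502 the reverse. Of 10 mast cell markers 9 had a value and 3 were detected, with log2 values of -0.24 to 9.03 (median 2.33). FCER1A, the receptor's alpha chain, had no value. T cell markers had a value in 0 of 5, B cell markers in 1 of 5 (1 detected) and monocyte or macrophage markers in 2 of 5 (1 detected). Platelet markers had one in 2 of 5 (2 detected, log2 value 7.72 and 8.12) and erythroid markers in 3 of 5 (2 detected, 3.25 to 8.99). The part of other cells in the values below was not tested.

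Of the 9 genes 7 (77.8%) were detected, against 45.5% of all genes and 43.6% of protein-coding genes with a value. As the 9 were chosen with earlier results of these data known, these shares are description only. The call depends on the shrinkage: from estimated reads, with deposited values kept at a linear value of 25 and over, 5 of the 9 passed the threshold in both libraries, against 33.9% of all genes. BTK and LAT2 did not. The median log2 value of the 9 was 4.06 and that of all genes 3.06. Per exonic kilobase this order turned against all genes with a gene model. The median was 1.57 for the 9 genes and 1.78 for all those genes, and 4 of the 9 lay above the latter. Against protein-coding genes alone, which all 9 are, it did not turn. LCP2, the median gene of the 9, stood per exonic kilobase at percentile 63.4 of protein-coding genes and 47.5 of all genes with a model. On both scales C5orf58 stood far above the other 8 genes, and LYN and SYK were the lowest. C5orf58 alone held 82.2% of the summed linear value of the 9 genes in replicate 1 and 80.3% in replicate 2. The 9 genes together made up 0.0737% and 0.0569% of all linear value.

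**Figure D1:**
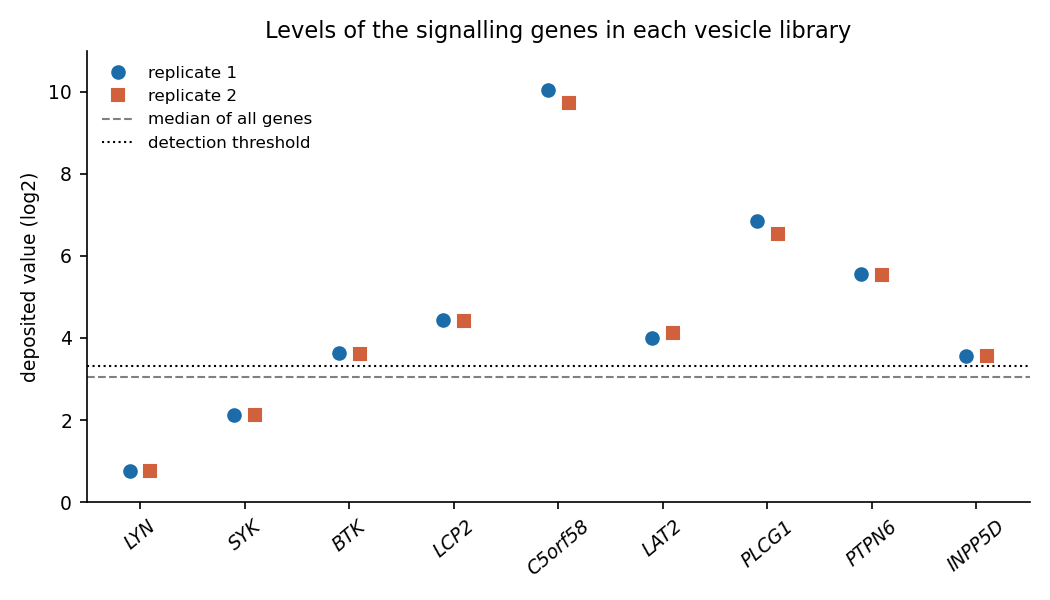
Deposited log2 value of each gene in replicate 1 (circles) and replicate 2 (squares), with the median of all genes (dashed) and the detection threshold (dotted). LYN and SYK lie below both lines, and C5orf58 lies at 10.05 and 9.73, above all other genes shown.

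LYN and SYK held little RNA, and BTK more. LYN, which starts the cascade (chromosome 8, 55879813 to 56014168, GRCh38), had log2 values of 0.77 (replicate 1) and 0.75 (replicate 2; mean 0.76 ± 0.01, SD, n = 2, as for all genes below). This pair of values was shared with 535 other genes, among them the related kinase gene FGR, and it corresponds to 4 reads in replicate 1 and 0 in replicate 2. The near-equal deposited values of LYN thus rest on 1 library.

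SYK, the kinase that carries the signal to the adaptors (chromosome 9, 90801787 to 90898549), had 2.11 and 2.14 (2.12 ± 0.02). Its estimated reads were 2 and 6, which without the shrinkage is a linear value of 1.70 against 7.06, or 4.15-fold, where the deposited values differ 1.01-fold. BTK, a Tec family kinase that acts on the phospholipases (chromosome X, 101349447 to 101390796), had 3.64 and 3.61 (3.62 ± 0.02) and was the only detected kinase gene of the 3. Its estimated reads were 18 and 8, or 15.3 against 9.41 without the shrinkage. BTK was higher in replicate 1 than in replicate 2, and SYK was higher in replicate 2 than in replicate 1. None of the 3 kinase genes shares exonic bases with an opposite-strand gene in GENCODE 29.

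The adaptor gene LCP2, whose protein gathers the signalling complex around the phospholipase (chromosome 5, 170246237 to 170298227, minus strand), had 4.44 and 4.41 (4.43 ± 0.02). Its estimated reads were about 30 and 15. C5orf58 (chromosome 5, 170232447 to 170252575, plus strand) had 10.05 and 9.73 (9.89 ± 0.23), about 1970 reads over both libraries. C5orf58 was thus 5.61 log2 units above LCP2 in replicate 1 and 5.31 in replicate 2 (5.46 ± 0.21, a ratio of 44.0), and per exonic kilobase the gap was 6.65. The libraries did not overlap, with both values of C5orf58 above both of LCP2.

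The overlap of these genes is small. They share 123 exonic bases, 3.86% of the exonic bases of C5orf58 and 1.70% of those of LCP2, in a run of 45 bases (chr5:170251648-170251692) and a run of 78 (chr5:170252434-170252511). The longer run is a complete coding exon of LCP2. Its start is printed here as part of the longer stretch that both genes hold. The coding part of the first coding exon of C5orf58 (chr5:170234977-170235070), which lies outside LCP2, follows. Both are 5′ to 3′ on the strand of the gene named, from the GENCODE 29 transcripts. Capitals mark the first 30 bases of the shared exon in LCP2, after 20 bases of the coding exon before it (170253119 to 170253213), and the start codon in C5orf58.
LCP2: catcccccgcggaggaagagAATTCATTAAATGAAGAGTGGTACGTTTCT
C5orf58: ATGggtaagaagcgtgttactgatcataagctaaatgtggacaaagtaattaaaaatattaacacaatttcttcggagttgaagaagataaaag

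A gap of this size was not rare in the libraries. Among 2898 pairs of genes that share exonic bases on opposite strands and both have a value, the median gap was 3.10 log2 units in either direction, and 22.0% of pairs had a gap at least as wide as that of LCP2 and C5orf58. Among the 1091 pairs in which both genes are protein-coding, as here, the median was 2.72 and the share 16.9%. No source used here gives the strand setting of the authors' counting, so which strand's RNA any of these values measures is uncertain.

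**Figure D2:**
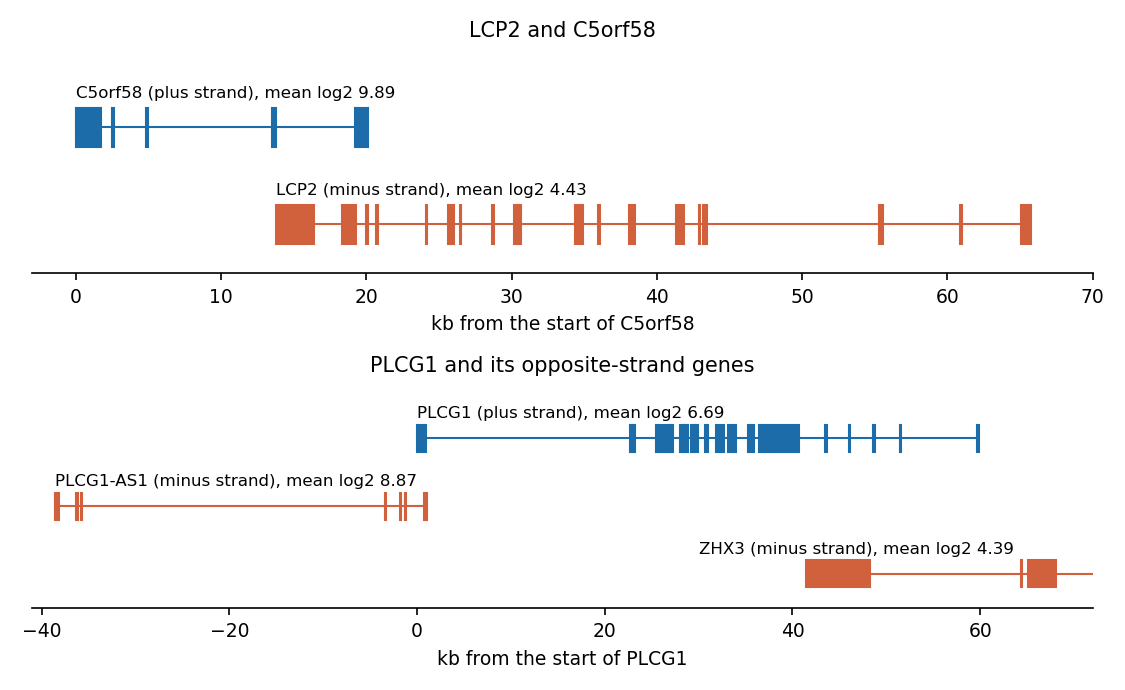
Exons (boxes) of LCP2 and C5orf58 and of PLCG1, PLCG1-AS1 and the near end of ZHX3, by distance in kilobases from the start of C5orf58 or of PLCG1, coloured by strand and marked with the mean log2 value. The opposite-strand gene is higher than the signalling gene for LCP2 (9.89 against 4.43) and for PLCG1 at its start (8.87 against 6.69), and ZHX3 at its end is lower at 4.39.

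LAT2, the adaptor also called NTAL (chromosome 7, 74199652 to 74229834), had 4.00 and 4.12 (4.06 ± 0.08). It was one of only 2 of the 9 genes that were higher in replicate 2, SYK being the other. Its difference of 0.12 lay within the -0.15 to 0.15 seen in the 513 genes within 10% of its linear value, itself included. The estimated reads were about 3 and 28, solved as 2.57 and 27.8 before rounding. Without the shrinkage the rounded reads give 12.9-fold, a rough figure at this level. LAT2 shares no exonic bases with an opposite-strand gene, and the neighbour RFC2, on the opposite strand 1665 bases away, had 3.23 ± 0.04.

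PLCG1, the phospholipase that makes the second messengers for calcium release (chromosome 20, 41136960 to 41196801, plus strand), was the highest of the 8 genes other than C5orf58 on both scales. It had 6.84 and 6.53 (6.69 ± 0.22), about 213 reads over both libraries, and was 1.24-fold higher in replicate 1. Among the 500 genes nearest to it in mean value, 12.2% differed by at least as much between the libraries.

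PLCG1 faces 3 opposite-strand genes with a value. PLCG1-AS1, an antisense RNA gene that starts inside PLCG1, past its first coding exon, and runs back over that exon, had 8.75 and 8.99 (8.87 ± 0.17). It exceeded PLCG1 by 1.91 log2 units in replicate 1 and 2.46 in replicate 2 (2.19 ± 0.39), and the 2 genes moved in opposite directions between the libraries. At the other end, ZHX3, a transcriptional repressor gene, had 4.39 ± 0.11 with a gap to PLCG1 of -2.30 ± 0.33, and the pseudogene AL022394.1 had 3.36 ± 0.03, with a gap of -3.33 ± 0.25. Per exonic kilobase AL022394.1, with 292 exonic bases, instead lay 1.72 above PLCG1. Of the 22 PLCG1 transcripts in GENCODE 29, 8 reach into or start within ZHX3, and the exons shared with ZHX3 and AL022394.1 belong to these. RPL23AP81, a pseudogene on the same strand that shares 111 exonic bases with PLCG1, had no value. Gaps at least as wide as those of PLCG1-AS1 and ZHX3 were found in 63.8% and 61.8% of all opposite-strand pairs.

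The first coding exon of PLCG1 carries the overlap with PLCG1-AS1. Its coding part (chr20:41137642-41137858, plus strand, GRCh38, from the GENCODE 29 transcripts) is shown from the start codon. Capitals mark the 145 bases that PLCG1-AS1 also holds as its complement (chr20:41137714-41137858).
PLCG1: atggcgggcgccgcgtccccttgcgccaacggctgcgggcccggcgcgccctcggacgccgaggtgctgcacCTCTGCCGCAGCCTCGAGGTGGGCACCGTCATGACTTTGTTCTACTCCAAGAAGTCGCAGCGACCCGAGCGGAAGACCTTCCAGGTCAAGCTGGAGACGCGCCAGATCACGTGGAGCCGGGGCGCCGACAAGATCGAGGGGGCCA

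The phosphatase genes had close values in both libraries. PTPN6, which encodes the tyrosine phosphatase SHP1 (chromosome 12, 6946468 to 6961316), had 5.56 and 5.55 (5.55 ± 0.01), about 95 reads over both libraries. Of the 500 genes nearest in mean value, 90.4% differed more or as much between the libraries. INPP5D, which encodes the lipid phosphatase SHIP1 (chromosome 2, 233059967 to 233207903), had 3.56 in each library, with a difference of -0.00015 log2 units. Its estimated reads were 14 and 10, or 11.9 against 11.8 without the shrinkage, so the libraries were close on that scale as well. Neither phosphatase gene shares exonic bases with another gene.

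The order of the genes is given per exonic kilobase, as log2 of the linear value per kilobase of merged exons. From high to low it was C5orf58 (8.22 ± 0.23), PLCG1 (3.41 ± 0.22), PTPN6 (3.23 ± 0.01), LAT2 (1.88 ± 0.08), LCP2 (1.57 ± 0.02), BTK (1.43 ± 0.02), INPP5D (0.45 ± 0.0001), SYK (-0.26 ± 0.02) and LYN (-1.87 ± 0.01). The 2 values of each gene did not overlap those of its neighbour in any of the 8 neighbouring pairs, but the shrinkage makes these ranges too narrow. Against the counting error of the estimated reads, 3 of the 8 gaps exceeded 2 standard errors, namely C5orf58 over PLCG1 (4.80), PTPN6 over LAT2 (1.35) and BTK over INPP5D (0.98). PLCG1 and PTPN6 (gap 0.19, counting error 0.18), LAT2 and LCP2 (0.31, 0.34), LCP2 and BTK (0.14, 0.36), INPP5D and SYK (0.70, 0.59) and SYK and LYN (1.61, 0.88) were not separated by this measure. The counting error treats each read as independent and does not cover library preparation. It also pools both libraries, though LAT2 had about 3 and 28 estimated reads and BTK 18 and 8 (replicates 1 and 2). In replicate 2 without the shrinkage, and before division by length, BTK had a linear value of 9.41 and INPP5D 11.8. BTK has 4575 exonic bases and INPP5D 8681, so per base BTK was the higher there too. Whether the gaps of PTPN6 over LAT2 and BTK over INPP5D exceed 2 standard errors in each library alone was not tested. If both mates of each read pair were counted, the counting error grows and 2 of the 8 gaps exceed 2 standard errors. BTK over INPP5D (error 0.58) is then no longer among them.

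**Figure D3:**
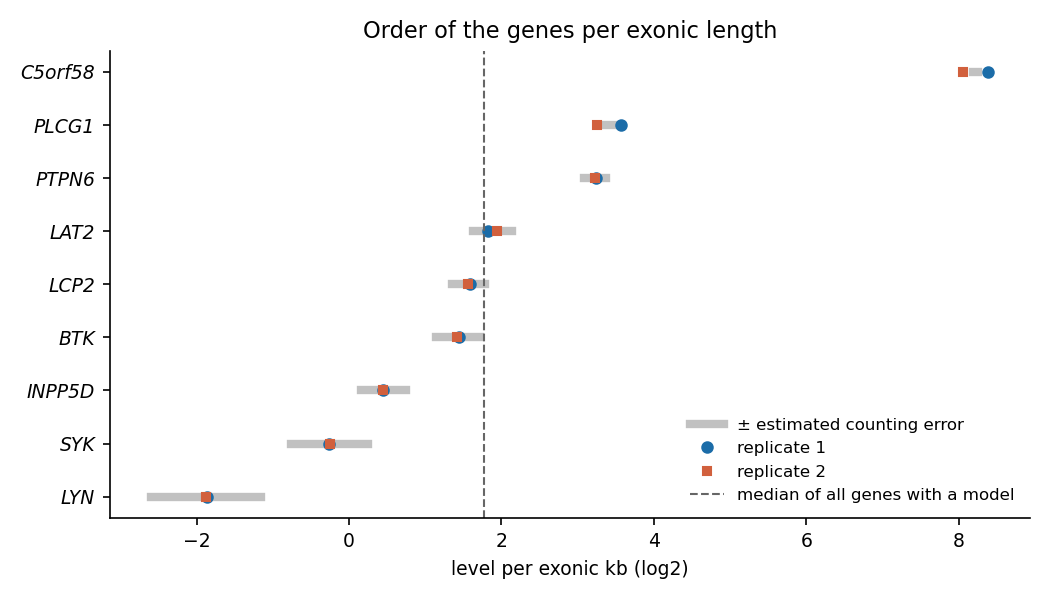
Level per exonic kilobase (log2) of each gene in replicate 1 (circles) and replicate 2 (squares), with bars of 1 estimated counting standard error on each side of the mean and the median of all genes with a model (dashed). C5orf58, PLCG1, PTPN6 and LAT2 lie above the median of 1.78, and the bars of LAT2, LCP2 and BTK overlap.

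Between the libraries, 7 of the 9 genes were higher in replicate 1, as were 64.1% of all genes. None of the 7 detected genes differed 2-fold in the deposited values (0 of 7), against 0.198% of all detected genes, and 0 differed 1.5-fold, against 1.13%. For BTK, LCP2, LAT2 and INPP5D the shrinkage left no room for either call. Of these, LCP2 lay at the widest range, -0.18 to 0.19 log2 units among the 456 genes within 10% of its linear value. The largest difference was that of C5orf58 at 0.33 log2 units, and 27.8% of the 500 genes nearest in mean value differed as much. By estimated reads, which could be had for the 6 genes under a linear value of 25, LYN, SYK and LAT2 (3 of 6) differed at least 2-fold or had reads in 1 library alone, against 88.4% of all genes in that range. LYN was the only one of the 6 with reads in 1 library alone.

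**Figure D4:**
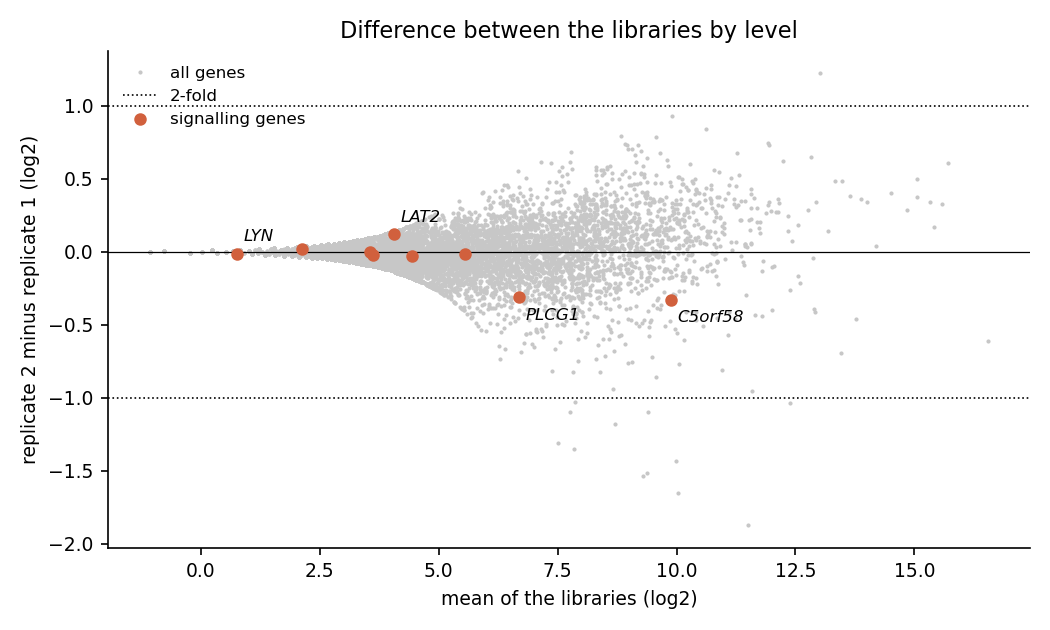
Difference between the libraries (replicate 2 minus replicate 1, log2) against their mean for all genes (grey) and the 9 genes (coloured), with dotted lines at 2-fold. The grey cloud narrows towards 0 at low means, and LAT2 lies in its upper part at 0.12, while PLCG1 (-0.31) and C5orf58 (-0.33) lie within it.

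Of 68 further genes of IgE receptor signalling, listed by role, 40 had a value and 19 were detected (27.9% of the list), which is 47.5% of those with a value against 45.5% of all genes with one. From estimated reads, as above, 6 of the 40 passed the threshold in both libraries, against 33.9% of all genes. Up to 2 genes are named per role, those with the highest deposited value, which is not an order per length, and each role's count below includes genes with no value. Of the receptor subunits only the beta chain gene MS4A2 had a value, 1.23 ± 0.01, from reads in replicate 2 alone (0 and 4), and FCER1A and FCER1G had none. Of 11 further kinases 3 had a value and 0 were detected, with TEC, the founding gene of the Tec family, at 2.05 ± 0.01. The values of RASGRP1 and DOK1, given below, are uncertain because their exons overlap a gene on the other strand. FYN, which works beside LYN at the receptor, had no value.

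Further adaptors were detected in 4 of 11, of which 7 had a value. GAB2, which links the receptor to PI3-kinase, stood at 5.29 ± 0.11, and FYB1 at 3.80 ± 0.08. LAT, the partner of LCP2, had no value, and GRB2 stood at -0.24 ± 0.005. Lipases, lipid kinases and exchange factors were detected in 5 of 11, of which 8 had a value. PIK3CG, a catalytic subunit of PI3-kinase, had 6.77 ± 0.11 and the Ras activator RASGRP1 had 5.67 ± 0.21, while PLCG2, the second phospholipase C gamma, had no value.

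Downstream genes were detected in 6 of 14, of which 12 had a value. The GTPase gene HRAS stood at 4.77 ± 0.01 and the protein kinase C gene PRKCA at 3.76 ± 0.03. Inhibitors were detected in 4 of 18, of which 9 had a value. The docking protein gene DOK1 stood at 4.36 ± 0.03 and PTPRC, the phosphatase CD45, at 4.11 ± 0.06. Of all genes with a value, 45.5% were detected. The median log2 value of the 40 genes was 3.31, and 0.21 per exonic kilobase, against 3.06 and 1.78 for all genes. The 1.78 is over all genes with a model, those that are not protein-coding included. For scale, INPP5D at 0.45 per exonic kilobase stood at percentile 33.0 of all genes with a model and 46.2 of protein-coding genes. Estimated reads lay in 1 library alone for 18 of the 40, against 49.3% of all genes. These included 6 of the 19 detected genes (31.6%, against 9.22% of all detected genes), FYB1, SH3BP2, PIK3CA, STIM1, NFATC1 and CD300A, all read in replicate 1. The 9.22% takes in genes of all higher levels and is not matched for level. All 6 lay at a linear value of 10 to 15, where 428 of 1316 genes were read in 1 library alone.

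**Figure D5:**
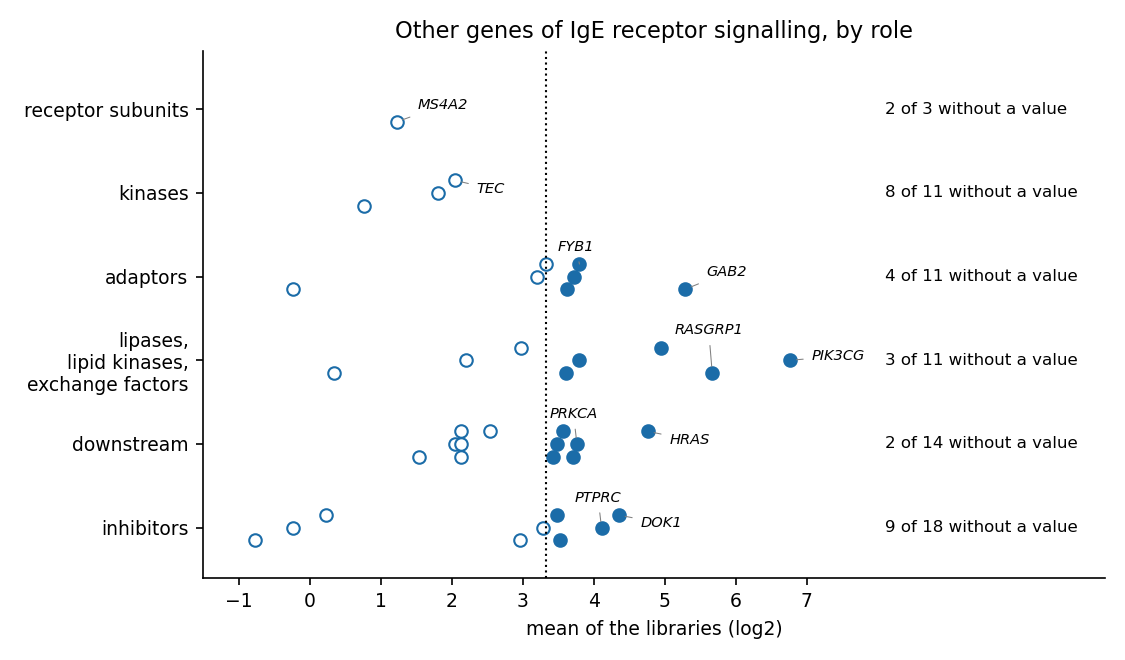
Mean log2 value of the further pathway genes by role, filled where detected and open where not, with the threshold dotted and the number without a value at the right. All kinases and the receptor subunit with a value lie below the threshold, and PIK3CG has the highest deposited value shown, 6.77. SHC1, to the right of the line but open, was below the threshold in replicate 1.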

How the data were processed

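RNA of LAD2 vesicles was sequenced in 2 libraries. Per the labels' protocols, RNA was taken with an RNeasy kit and libraries were made with a NEB NextUltra kit. Per the submitters' processing notes, FastQC 0.11.5, STAR 2.6.1a and hg38 were used. No source used here gives the counter, strand setting, annotation or transform. The authors deposited 1 log2 value per gene and library in files named as counts. The values hold fractions and numbers below 0, so no count test was run, and with 1 group no p-value is given.

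Here the values were averaged as log2 mean ± SD (n = 2). Reads were estimated from 2 equations per gene: the higher linear value is a sum of steps of 0.425 per read in replicate 1 and 0.588 in replicate 2, and the log2 difference grows by a fixed amount per read. Estimates were not made above a linear value of 25 by this route; there the linear value was divided by the worth of 1 read. Symbols were matched to gene identifiers (11066 of 14467 had one), and positions and exons came from GENCODE 29 on GRCh38, the same build as hg38. The 734 genes without a model there enter no length or overlap result. Opposite-strand partners share at least 1 exonic base. Named are the 9 genes, all genes sharing exonic bases with them, and per role the 2 highest of the further pathway list (1 of them is not reported here); other genes were chosen after their values were seen. The genes and lists were chosen with earlier results of these data known. Scripts (Python 3.11.15, numpy 2.4.6, pandas 2.3.3, matplotlib 3.10.9) were tested on simulated data. Alternatives covered the threshold, length, pseudocount, scale and leaving out a library.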

Additional observations from a re-analysis of the deposited data

How the results depend on the processing

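With a linear value of at least 20 in both libraries, 4 of the 9 genes and 6 of the further pathway genes were detected, so that BTK, LAT2 and INPP5D lost the call. At 5 the counts were 7 and 25. The share of all genes passing at 20 or at 5 was not counted, so these counts are description only. Without the shrinkage 5 of the 9 genes and 6 of the further genes passed at 10, against 33.9% of all genes. The median of the 9 genes was 4.43 over the detected genes and 3.59 over those that share no exonic base with another gene, since these sets leave out the low or the overlapped genes. Per exonic kilobase the gap of C5orf58 over LCP2 was 6.65 and that of PLCG1-AS1 over PLCG1 4.91, or 4.80 with the PLCG1 transcripts that end before ZHX3, and the gap of AL022394.1 to PLCG1 turned to 1.72, over its 292 exonic bases. The count of genes 2-fold apart between the libraries was 0 at 1.5-fold too (1.13% of all detected genes) and 3 with estimated reads. In the deposited values the shrinkage left no room for either call in BTK, LCP2, LAT2 and INPP5D. Percentiles per exonic kilobase, the transcripts that end before ZHX3, the estimated reads, detection without the shrinkage and the counting error for both mates were added after seeing the data. Leaving out either library changed no direction, but the shrinkage lets each library's values carry the other's reads, so this says nothing about stability. With a pseudocount of 1 the levels of 6 of the 9 genes moved by more than 1 SD. No paired analysis was possible because only 1 group was sequenced. Depth limits LYN and SYK most, with 4 and 8 estimated reads in all.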

Other observations

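Reads estimated in 1 library alone more often came in even than in odd numbers. In replicate 1, the 5 even steps from 2 to 10 held 2406 genes and the 4 odd steps between them 625, and in replicate 2 the 5 even steps held 1103 genes and the 5 odd steps from 1 to 9 held 268. Whether both mates of a read pair were counted is not stated in the sources.

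Several genes of the pathway cannot be told apart in the deposited values. SYK had exactly the same pair of values as PRKCB and ORAI1, a pair that 31 genes share, and LYN the same as FGR. These genes were chosen after their values were seen.

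Next to PTPN6, the antisense gene U47924.2 had log2 values of 10.49 and 10.95 (10.72 ± 0.32). It lies 1864 bases before PTPN6, shares no exonic base with it and overlaps C12orf57, which had 3.99 ± 0.02. This gene was also chosen after its value was seen.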
